A study of Homo sapiens with 6 samples.

Results

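The genes described here encode the urea cycle and the enzymes that break down amino acids, in 7 pathways: the urea cycle, glutamine and glutamate, the aminotransferases, the aromatic amino acids, the group of glycine, serine, histidine, lysine and proline, methionine with methyl group transfer, and the branched-chain amino acids. They were chosen by name, as a list of 40 gene symbols. Of these, 38 had a row among the 19846 genes of the deposited count table, and TDO2 and SDS were not analysed here. Of the 38 genes, 37 had enough counts to be tested, and OTC did not.

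Messenger RNA was sequenced from HepG2, a human liver tumour cell line, after growth as 3D culture in an interwoven hollow fiber bioreactor (3 samples) and as 2D culture in plates (3 samples). Cells of both cultures were at passages 7 to 9 and were kept at 37 °C with 5% CO2. The 3D cultures had a mixture of EMEM and DMEM in equal parts, with 10% serum, 1% penicillin-streptomycin and 1% GlutaMAX, a stable dipeptide that supplies glutamine, with medium recirculated at 23.5 mL/min, fed at 2 mL/hour and gassed at 200 mL/min. The 2D cultures were seeded at 200000 cells per square centimetre in 6-well plates in EMEM, whose supplements the sources used here do not state, and the medium was renewed every 2 days. Culture form, medium and feeding differ together, and whether the glutamine supply differs is not stated. The parts of these factors in any difference below cannot be told apart. Since separate cultures are not stated for the replicates, p-values measure only the spread between these samples. HepG2 is a single tumour line and is known as a weak model of hepatic urea synthesis, with little OTC and ARG1.

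In the liver, amino groups leave amino acids through aminotransferases and glutamate dehydrogenase, and the freed ammonia enters the urea cycle. The cycle starts in the mitochondrion with CPS1 and OTC and ends in the cytosol with ASS1, ASL and ARG1, while perivenous hepatocytes take up leftover ammonia into glutamine with GLUL. Several of these steps have paired isoenzymes, of which one is typical of adult liver (MAT1A, ARG1) and the other of extrahepatic, fetal or tumour tissue (MAT2A, ARG2).

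The 3D libraries held 9530795 to 15897621 counts each, the fewest in replicate 1, and the 2D libraries 16270361 to 17943513. The listed genes together took 0.286 to 0.310% of all counts in 3D libraries and 0.298 to 0.327% in 2D libraries. Levels are given as CPM (counts set to the same library total, with TMM factors), and a count of 3, taken as the floor of detection, was worth 0.167 to 0.315 CPM. Floors cover counting error only. Markers of hepatocytes (8 of 8 analysed) summed to 30690 to 49280 CPM in 3D and to 39472 to 43910 CPM in 2D, but single genes moved in both directions. APOA1 was 2.61-fold and TF 1.63-fold higher in 3D, and APOB 2.68-fold lower (edgeR adjusted p = 0.000183, 0.0178 and 0.000614). The TF call held in only 2 of the 6 runs with a library left out. The other 5 hepatocyte markers did not pass the test. APOB alone averaged 6631 CPM in 3D and 17756 CPM in 2D. Endothelial markers (4 of 6, none past an edgeR adjusted p of 0.05) summed to 3.09 to 8.08 CPM in 3D and 2.50 to 4.97 CPM in 2D. Fibroblast markers (3 of 7) summed to 25.5 to 42.8 CPM in 3D and 35.5 to 44.8 CPM in 2D, and their 3 genes moved in both directions. COL1A1, a collagen, had 18.3, 16.9 and 6.19 CPM in 3D and 1.82, 0.424 and 1.55 CPM in 2D and was 10.8-fold higher in 3D (edgeR adjusted p = 0.00159). PDGFRB was 3.27-fold lower and ACTA2 1.45-fold lower in 3D (edgeR adjusted p = 0.000650 and 0.0165), while COL1A2, COL3A1, DCN and LUM were not analysed here. Blood and macrophage markers (3 of 6) summed to 436 to 1015 CPM in 3D and 980 to 1476 CPM in 2D, most of it LYZ. LYZ averaged 722 CPM in 3D and 1276 CPM in 2D, a difference that did not pass (log2 fold change -0.82, edgeR adjusted p = 0.0555). CD68, a macrophage marker of that list, had 22.3, 41.4 and 32.3 CPM in 3D and 6.14, 9.58 and 7.16 CPM in 2D and was higher in 3D by that test. CD14 reached at most 3.10 CPM in 3D and 1.82 CPM in 2D, and PTPRC, CSF1R and ITGAM were not analysed here. Cholangiocyte markers (6 of 7) summed to 769 to 849 CPM in 3D and 625 to 697 CPM in 2D, the one summed list whose groups did not overlap, with KRT19 and EPCAM among those higher and SOX9 lower by the same test. The ACTA2 result was lost without 2D replicate 1 (adjusted p = 0.0594), that of SOX9 without 2D replicate 3 (0.0528), and that of EPCAM when either one of these libraries was left out (up to 0.0578). Single markers were picked out after their values were seen. The part of these cell type markers in the results below was not tested. In bulk RNA, fewer cells of a type and less RNA per cell cannot be told apart.

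The listed genes did not move one way. Of the 37 tested genes, 10 were higher and 9 lower in 3D, and 18 did not pass the test (edgeR quasi-likelihood test with Benjamini-Hochberg adjustment over 15314 genes, called at an adjusted p under 0.05). That is 27.0% higher and 24.3% lower, beside 19.0% higher and 17.6% lower over all tested genes. The median log2 fold change, 3D over 2D, was -0.04 for the tested genes and 0.02 over all tested genes. After correction for transcript length and GC content the split became 7 higher and 12 lower, with a median of -0.23, while the median over all corrected genes was 0.01. ARG1, UROC1, PRODH and BHMT passed the filter on low counts only through their 3D libraries, so these counts are a description of the genes that passed. The groups did not overlap for 21 of the 37 genes, and for 50.5% of all tested genes. The urea cycle had 1 gene higher and 4 lower of 6 tested, whereas glutamine and glutamate had 2 higher and 0 lower of 3. Aminotransferases had 1 higher and 1 lower of 4, the aromatic amino acids 2 and 1 of 5, and the group of glycine, serine, histidine, lysine and proline 2 and 1 of 8. Methionine with methyl group transfer had 1 and 1 of 5, and the branched-chain group 1 and 1 of 6. The genes lower in 3D thus numbered 4 of 6 in the urea cycle and at most 1 in every other pathway. After the length and GC correction the urea cycle again had 4 lower. The aminotransferases, the aromatic amino acids, the glycine to proline group and the methionine group then had 2 lower each. Glutamine and glutamate and the branched-chain group had 0. The difference between pathways was not tested.

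**Figure D1:**
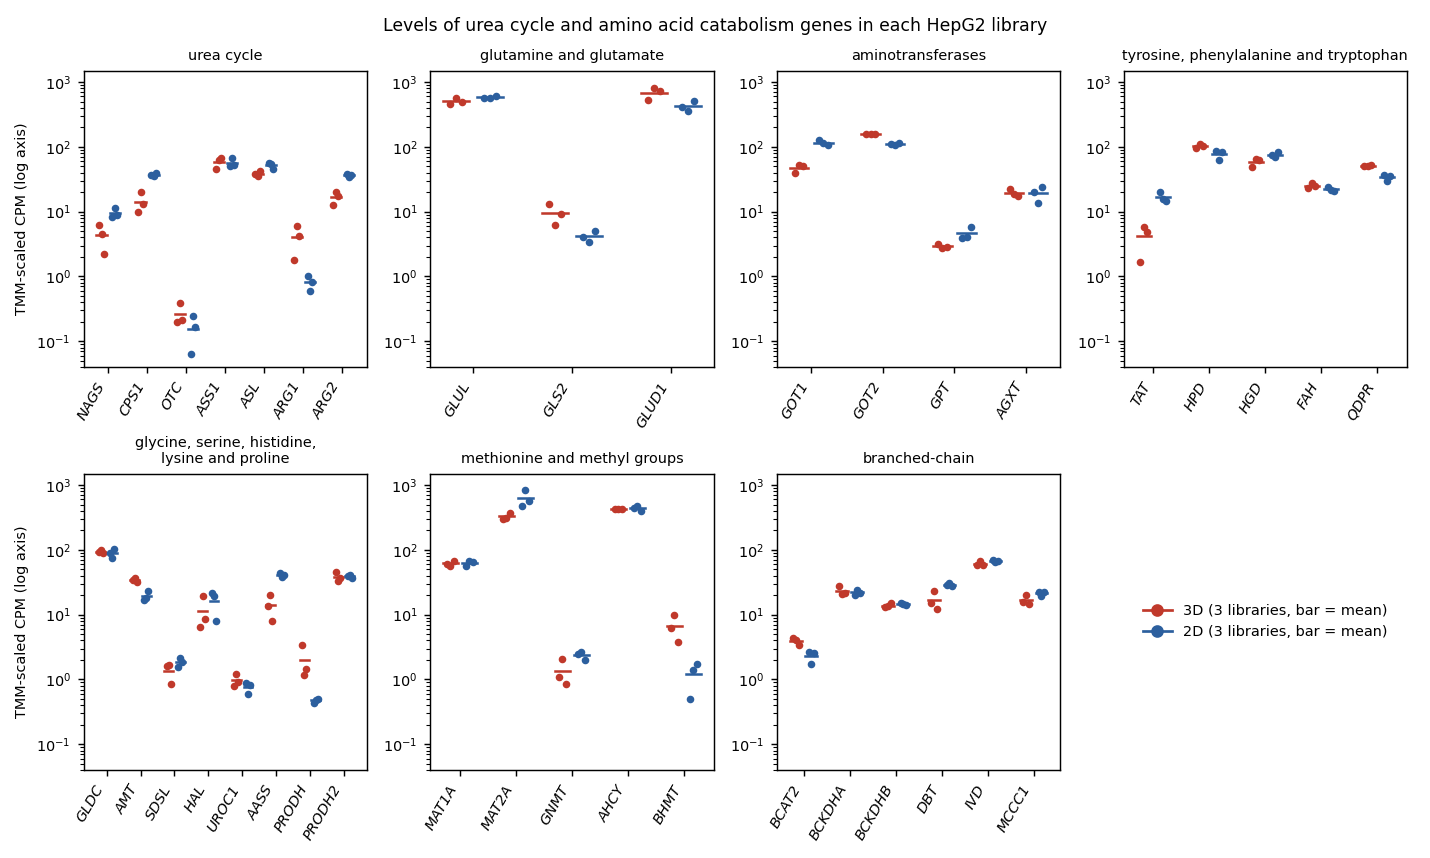
Level of each of the 38 listed genes with a row in the table, in TMM-scaled CPM on a log axis, with 3 libraries of 3D (red) left of 3 libraries of 2D (blue) and a bar at each group's mean. The arginase, methionine adenosyltransferase and aspartate aminotransferase genes show one isoenzyme shifted without, or against, the other.

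In the urea cycle NAGS and CPS1 at the mitochondrial entry fell, ASL fell by less, ASS1 did not pass the test, and the arginases moved in opposite directions. CPS1, the rate-limiting carbamoyl phosphate synthetase (chromosome 2, 210477682 to 210679107, plus strand, hg38), had 9.72, 19.8 and 13.01 CPM in 3D libraries and 36.4, 35.1 and 40.1 CPM in 2D libraries. All 3D libraries lay below all 2D libraries, with 3D replicate 1 lowest. CPS1 was 2.60-fold lower in 3D (log2 fold change -1.38, SE 0.22, edgeR adjusted p = 0.000894). NAGS, which makes the N-acetylglutamate that CPS1 needs as activator, had 6.25, 4.52 and 2.25 CPM in 3D and 8.14, 11.2 and 8.94 CPM in 2D, again with no overlap. It fell by 1.14 on the log2 scale (SE 0.31, edgeR adjusted p = 0.0146), a call lost without 2D replicate 2 (log2 fold change -1.01, adjusted p = 0.0550).

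OTC, which joins carbamoyl phosphate to ornithine, was close to undetected in both cultures. Its levels were 0.198, 0.388 and 0.211 CPM in 3D and 0.0626, 0.242 and 0.167 CPM in 2D, from at most 6 counts in a library, and it was not tested. ASS1 (argininosuccinate synthetase) had 46.1, 62.0 and 67.6 CPM in 3D and 50.5, 67.0 and 51.7 CPM in 2D. The groups overlapped, and no difference was detected (log2 fold change 0.06, SE 0.16, edgeR adjusted p = 0.813). ASL (argininosuccinate lyase) had 37.6, 35.7 and 43.0 CPM in 3D, below its 56.2, 54.0 and 45.9 CPM in 2D, and fell by 0.42 on the log2 scale (SE 0.13, edgeR adjusted p = 0.0274). The ASL call was lost without 3D replicate 2 (adjusted p = 0.0663), 2D replicate 1 (0.120) or 2D replicate 2 (0.0835). ASS1 has 11 processed or other pseudogene copies by name and ASL 1, and how reads matching several places were counted is not given, so both levels are uncertain.

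ARG1, the cytosolic liver arginase that releases urea (chromosome 6, 131573144 to 131584332, plus strand, hg38), rose 4.97-fold in 3D, though it stayed scarce. It had 18, 94 and 59 counts in 3D and 16, 10 and 15 counts in 2D, which is 1.79, 6.07 and 4.15 CPM in 3D and 1.00, 0.606 and 0.833 CPM in 2D. Every 3D library was above every 2D library, and 3D replicate 1 was nearest to them (log2 fold change 2.31, SE 0.44, edgeR adjusted p = 0.00220). ARG1 passed the filter on low counts only through its 3D libraries, so its fold change and p-value are only a description. ARG2, the mitochondrial arginase of extrahepatic tissues (chromosome 14, 67619798 to 67651720, plus strand, hg38), went the other way. Its levels were 12.6, 20.1 and 17.5 CPM in 3D and 38.6, 33.9 and 36.1 CPM in 2D, 2.15-fold lower in 3D (log2 fold change -1.10, SE 0.17, edgeR adjusted p = 0.000651). An exon of ARG2 overlaps VTI1B on the other strand, and since strand handling is not given, shared reads cannot be told apart. VTI1B itself averaged 51.0 ± 5.54 CPM in 3D and 54.1 ± 1.36 CPM in 2D (SD, n = 3 each), a difference that did not pass the test (edgeR adjusted p = 0.620).

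Within a library, ARG2 counts were 6.89, 3.30 and 4.19 times those of ARG1 in 3D and 37.4, 53.4 and 42.0 times in 2D. The log2 ratio averaged 2.19 ± 0.54 in 3D and 5.45 ± 0.26 in 2D (SD, n = 3 each), a difference of -3.26 that does not depend on library scaling. With 3 libraries against 3, the exact two-sided permutation test cannot go below p = 0.10, which is the value it gave here, and 0.12 after adjustment over the 6 isoenzyme pairs computed, of which 5 are reported here. Summed over its 7 genes, the urea cycle took 114, 149 and 148 CPM in 3D and 191, 202 and 184 CPM in 2D, without overlap.

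Among the aminotransferases, the cytosolic and mitochondrial aspartate enzymes, partners in the malate-aspartate shuttle, also moved in opposite directions. GOT1 (cytosolic; chromosome 10, 99396870 to 99430624, minus strand, hg38) had 39.3, 51.9 and 49.8 CPM in 3D and 126, 115 and 107 CPM in 2D. GOT2 (mitochondrial; chromosome 16, 58707131 to 58734357, minus strand, hg38) had 157, 157 and 159 CPM in 3D and 111, 106 and 114 CPM in 2D. Neither gene's groups overlapped. GOT1 was 2.46-fold lower in 3D (log2 fold change -1.30, SE 0.14, edgeR adjusted p = 8.59e-05), and GOT2 was 1.43-fold higher (log2 fold change 0.51, SE 0.11, edgeR adjusted p = 0.00386). GOT1 counts were 0.250, 0.331 and 0.312 times those of GOT2 in 3D, and 1.13, 1.08 and 0.934 times in 2D. The mean log2 ratio differed by -1.82 (exact permutation p = 0.10, the smallest possible). GOT2 has 4 pseudogene copies by name, so its level is uncertain.

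GPT, alanine aminotransferase, had 3.17, 2.78 and 2.88 CPM in 3D, all below the 3.94, 4.06 and 5.88 CPM in 2D. The difference did not pass the test (log2 fold change -0.66, SE 0.26, edgeR adjusted p = 0.0670) but did after the correction for length and GC content (-1.08, adjusted p = 0.00913). AGXT, the peroxisomal enzyme that removes glyoxylate, averaged 19.5 ± 2.62 CPM in 3D and 19.3 ± 5.22 CPM in 2D (SD, n = 3 each), with overlapping groups (edgeR adjusted p = 0.965).

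The arginase and aspartate aminotransferase pairs are the ones whose members moved in opposite directions, so the 250 bases before each of their starts are shown, from RefSeq on GRCh38.p14, 5′ to 3′ on the gene's strand. RefSeq's start can differ from that of the count table. The windows of ARG2, ARG1 and GOT2 reach past the count table's start into the gene, and that of GOT1 does not. Such a window was found for 34 of the 40 listed genes, and for BCAT2, GPT, HGD, PRODH, SDSL and TAT there was no entry. Capitals mark a match, on either strand, to the cyclic AMP response element TGACGTCA or to the C/EBP-ATF composite TGATGNAA, which in GOT1 lies on the other strand. Positions count back from -1, the base just before the start.
ARG2: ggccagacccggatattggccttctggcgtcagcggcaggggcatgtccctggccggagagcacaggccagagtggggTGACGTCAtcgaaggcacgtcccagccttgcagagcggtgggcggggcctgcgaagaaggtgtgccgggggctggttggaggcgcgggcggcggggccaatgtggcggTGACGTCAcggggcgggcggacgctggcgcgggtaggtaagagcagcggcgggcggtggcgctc
ARG1: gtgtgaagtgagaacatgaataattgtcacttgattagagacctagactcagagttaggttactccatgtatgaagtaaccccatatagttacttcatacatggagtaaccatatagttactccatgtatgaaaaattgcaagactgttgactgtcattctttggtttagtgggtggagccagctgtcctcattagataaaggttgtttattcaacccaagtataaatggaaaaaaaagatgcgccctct
GOT1: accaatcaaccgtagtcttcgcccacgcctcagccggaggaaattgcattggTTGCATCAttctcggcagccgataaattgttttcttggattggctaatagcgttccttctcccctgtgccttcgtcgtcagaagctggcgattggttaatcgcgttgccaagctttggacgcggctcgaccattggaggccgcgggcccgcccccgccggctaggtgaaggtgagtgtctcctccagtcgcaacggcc
GOT2: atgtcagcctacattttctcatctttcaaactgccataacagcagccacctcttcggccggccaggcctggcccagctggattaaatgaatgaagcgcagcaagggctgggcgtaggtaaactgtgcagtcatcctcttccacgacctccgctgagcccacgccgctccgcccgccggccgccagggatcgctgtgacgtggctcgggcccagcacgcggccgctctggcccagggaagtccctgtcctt

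The ARG2 window (chr14:67619670-67619919, plus strand) holds the cyclic AMP response element at -172 and at -64, and the GOT1 window (chr10:99430625-99430874, minus strand) holds the composite at -198. The windows of ARG1 (chr6:131572976-131573225, plus strand) and GOT2 (chr16:58734317-58734566, minus strand) hold neither. By the count table's start of ARG2 (67619798), the match at -64 lies inside the gene and the match at -172 before it. Of 35116 RefSeq windows of this length, 578 (1.65%) hold the cyclic AMP response element and 1104 (3.14%) the composite. The C/EBP motif TTNNGCAA is in 3178 windows (9.05%) and the E-box CACGTG in 2228. Both strands were searched, and a base can belong to more than one motif. Among the listed genes, TTNNGCAA matched in AASS (lower in 3D) and HAL (not called), and the E-box in CPS1 (lower), HPD (higher), MCCC1 and ASS1 (not called). The CPS1 match was only in the window chr2:210519468-210519717, which lies inside the gene by the count table. The HPD match was only in the window chr12:121888612-121888861, away from the count table's start of HPD (121863596). A match is only a run of letters, and a window without one says nothing about the factor.

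Of the glutamine and glutamate enzymes, those that release ammonia were higher in 3D, and the one that binds it was not. GLS2, the liver-type glutaminase, had 13.3, 6.27 and 9.28 CPM in 3D and 4.13, 3.39 and 4.94 CPM in 2D, with no overlap. GLS2 rose 2.29-fold (log2 fold change 1.19, SE 0.28, edgeR adjusted p = 0.00678), a call lost when 3D replicate 1 and 2D replicate 2 were left out together (adjusted p = 0.0678). GLUD1, glutamate dehydrogenase, had 537, 806 and 720.2 CPM in 3D and 413.5, 354 and 518 CPM in 2D and rose 1.61-fold (log2 fold change 0.68, SE 0.18, edgeR adjusted p = 0.0128). The GLUD1 call was lost without 3D replicate 2 (adjusted p = 0.0531), 2D replicate 1 (0.0582) or 2D replicate 2 (0.0680). GLUL, glutamine synthetase and the marker of perivenous hepatocytes, had 462, 559 and 489 CPM in 3D and 559, 557.5 and 619 CPM in 2D. Its groups touched, and the difference did not pass the test (log2 fold change -0.20, SE 0.13, edgeR adjusted p = 0.244). GLUD1 has 5 pseudogene copies by name and a near-identical gene, GLUD2, and GLUL has 4 copies, so these levels are uncertain. SPRYD4, which overlaps GLS2 on the other strand, averaged 25.4 ± 5.35 CPM in 3D and 26.7 ± 3.68 CPM in 2D (SD, n = 3 each; edgeR adjusted p = 0.786).

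**Figure D2:**
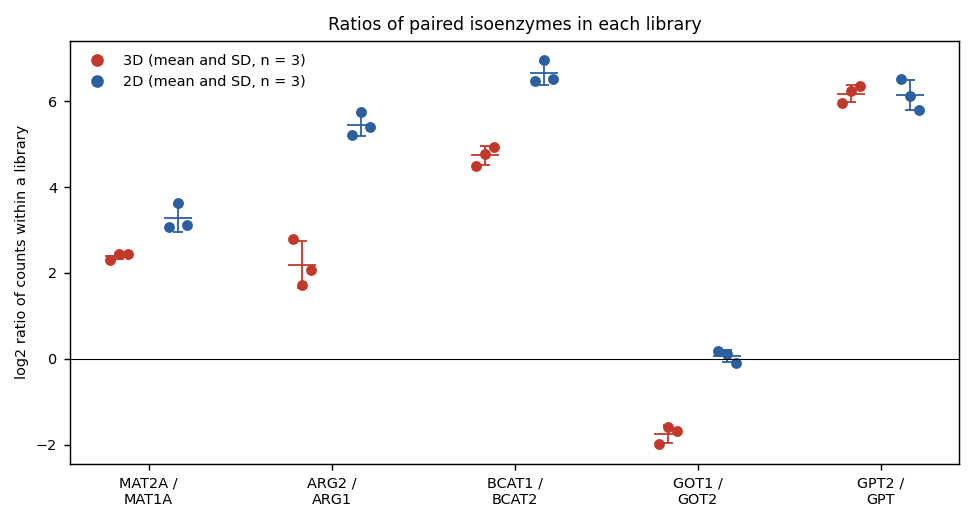
Log2 ratio of the counts of paired isoenzymes within each library, with 3D (red) left of 2D (blue), 3 points per group, and bars for the mean and SD. Of the 5 pairs shown, for 4 every 3D library lies below every 2D library, and for GPT2 over GPT the groups overlap.

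In tyrosine breakdown the entry enzyme fell, and the later enzymes had smaller fold changes. TAT, tyrosine aminotransferase, a liver gene induced by glucocorticoids (chromosome 16, 71565660 to 71577130, minus strand, hg38), had 1.69, 5.88 and 4.92 CPM in 3D and 20.2, 15.6 and 14.4 CPM in 2D. The groups were far apart, and 3D replicate 1 was lowest. TAT was 3.90-fold lower in 3D (log2 fold change -1.96, SE 0.34, edgeR adjusted p = 0.00210). TAT-AS1 overlaps it on the other strand and averaged 0.283 CPM in 3D and 0.381 CPM in 2D.

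HPD, the dioxygenase of the following step, had 94.7, 110.4 and 101 CPM in 3D and 85.4, 62.7 and 84.5 CPM in 2D. It was called higher (log2 fold change 0.40, SE 0.14, edgeR adjusted p = 0.0444), yet the call did not hold after the length and GC correction (0.08, adjusted p = 0.716). Leaving out any single library other than 3D replicate 1 lost the HPD call, with adjusted p up to 0.230. HGD, which opens the homogentisate ring, had 48.6, 64.5 and 63.4 CPM in 3D, all below the 75.1, 68.6 and 84.7 CPM in 2D, and missed the threshold (log2 fold change -0.37, SE 0.14, edgeR adjusted p = 0.0601) until corrected (-0.51, adjusted p = 0.00715). FAH, the last enzyme of the path, averaged 25.1 ± 2.15 CPM in 3D and 22.4 ± 1.81 CPM in 2D (SD, n = 3 each; edgeR adjusted p = 0.371). QDPR, which regenerates the cofactor tetrahydrobiopterin, had 51.5, 51.0 and 51.7 CPM in 3D and 37.3, 29.4 and 36.0 CPM in 2D. QDPR rose (log2 fold change 0.59, SE 0.13, edgeR adjusted p = 0.00504), and its corrected value did not pass (0.31, adjusted p = 0.0596).

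In the group of glycine, serine, histidine, lysine and proline, the entry to lysine breakdown fell and the T-protein of glycine cleavage rose. AASS, the bifunctional first enzyme of lysine breakdown (chromosome 7, 122075647 to 122144280, minus strand, hg38), had 13.7, 20.2 and 7.87 CPM in 3D and 43.9, 38.7 and 41.2 CPM in 2D. It was 2.96-fold lower in 3D without overlap (log2 fold change -1.57, SE 0.27, edgeR adjusted p = 0.00237). AMT, the aminomethyltransferase or T-protein, had 34.7, 36.5 and 32.2 CPM in 3D and 16.97, 18.2 and 23.0 CPM in 2D and rose 1.77-fold (log2 fold change 0.83, SE 0.15, edgeR adjusted p = 0.00169). GLDC, the glycine decarboxylase of the same complex, averaged 93.8 ± 5.11 CPM in 3D and 88.8 ± 14.5 CPM in 2D (SD, n = 3 each; edgeR adjusted p = 0.677), with overlapping groups.

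PRODH, the first enzyme of proline breakdown, had 34, 18 and 21 counts in 3D and 7, 8 and 9 counts in 2D, or 3.37, 1.16 and 1.48 CPM in 3D and 0.438, 0.485 and 0.4995 CPM in 2D. It was 4.04-fold higher in 3D (log2 fold change 2.02, SE 0.48, edgeR adjusted p = 0.00726), at levels close to the floor in 2D, and the call was lost without 3D replicate 1 and 2D replicate 2 together (adjusted p = 0.0514). PRODH passed the filter on low counts only through its 3D libraries, so its fold change and p-value are only a description. PRODH2, which acts on hydroxyproline, averaged 38.3 ± 6.70 CPM in 3D and 39.3 ± 2.14 CPM in 2D (SD, n = 3 each; edgeR adjusted p = 0.851) but was called lower after the length and GC correction (-0.44, adjusted p = 0.00760). The remaining 3 genes did not pass. HAL, which removes ammonia from histidine, spread widely, with 6.45, 19.3 and 8.58 CPM in 3D and 21.8, 19.6 and 8.10 CPM in 2D (by edgeR, adjusted p = 0.439). UROC1, the next step of histidine breakdown, averaged 0.978 CPM in 3D libraries and 0.772 CPM in 2D libraries (edgeR adjusted p = 0.505). SDSL, a homologue of serine dehydratase, averaged 1.37 CPM in 3D libraries and 1.88 CPM in 2D libraries (edgeR adjusted p = 0.345).

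Methionine is activated to S-adenosylmethionine, used for methylation, and regenerated from homocysteine. MAT2A, the extrahepatic activating enzyme (chromosome 2, 85539165 to 85545280, plus strand, hg38), had 302, 309 and 372 CPM in 3D and 482, 828 and 559 CPM in 2D, without overlap and with 2D replicate 2 highest. MAT2A was 1.90-fold lower in 3D (log2 fold change -0.93, SE 0.19, edgeR adjusted p = 0.00368). GGCX, whose exons overlap MAT2A on the other strand, fell too (63.6 ± 14.7 CPM in 3D and 199 ± 40.1 CPM in 2D, SD, n = 3 each; edgeR adjusted p = 0.000201), and reads shared between them cannot be told apart. MAT1A, the liver enzyme, had 61.0, 57.2 and 68.1 CPM in 3D and 57.4, 66.7 and 64.8 CPM in 2D, fully overlapping (log2 fold change -0.02, SE 0.12, edgeR adjusted p = 0.917). The ratio of MAT2A to MAT1A counts was 4.94, 5.39 and 5.47 in 3D and 8.40, 12.4 and 8.63 in 2D, 1.83-fold lower in 3D (exact permutation p = 0.10, the smallest possible). Per kilobase of transcript, MAT2A averaged 116 CPM per kb in 3D and 221 CPM per kb in 2D, above MAT1A in both cultures, which averaged 18.2 CPM per kb in 3D and 18.5 CPM per kb in 2D. Summed over its 5 genes, the methionine group took 804, 812 and 874 CPM in 3D and 991, 1366 and 1029.9 CPM in 2D, without overlap. MAT2A was the largest part of this sum (48.5% over the libraries of both cultures), so the sum does not show a fall of every gene. The groups of MAT1A and AHCY overlapped, and BHMT was higher in 3D.

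BHMT, which remethylates homocysteine with betaine and is typical of liver and kidney (chromosome 5, 79111779 to 79132290, plus strand, hg38), had the largest fold increase of the 37 tested genes in the edgeR fit. BHMT passed the filter on low counts only through its 3D libraries, so this rank and its p-value are only a description. It had 63, 151 and 54 counts in 3D and 8, 23 and 31 counts in 2D, or 6.25, 9.76 and 3.80 CPM in 3D and 0.501, 1.39 and 1.72 CPM in 2D. The groups did not overlap, and BHMT rose 5.42-fold (log2 fold change 2.44, SE 0.45, edgeR adjusted p = 0.00231). DMGDH, which overlaps it on the other strand, averaged 5.52 ± 2.60 CPM in 3D and 3.62 ± 0.0438 CPM in 2D (SD, n = 3 each; edgeR adjusted p = 0.180). AHCY, which clears S-adenosylhomocysteine, was nearly level, with 434, 435 and 429 CPM in 3D and 448, 467 and 402 CPM in 2D (by edgeR, adjusted p = 0.905), and has 6 pseudogene copies by name. GNMT, the glycine methyltransferase of liver, had 1.09, 2.07 and 0.844 CPM in 3D and 2.50, 2.67 and 2.00 CPM in 2D (log2 fold change -0.81, SE 0.38, edgeR adjusted p = 0.112). It was called lower after the length and GC correction (adjusted p = 0.0361) and without 3D replicate 2 (adjusted p = 0.0261). PEX6, which overlaps GNMT on the other strand, was lower in 3D (7.95 CPM in 3D and 13.7 CPM in 2D; by edgeR, adjusted p = 0.00560).

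Of the 6 branched-chain genes, 1 was called higher and 1 lower, beside 19.0% higher and 17.6% lower over all tested genes. Neither call held in all alternatives. BCAT2, the mitochondrial aminotransferase, had 4.36, 4.07 and 3.37 CPM in 3D and 2.63, 1.76 and 2.55 CPM in 2D. It barely passed (log2 fold change 0.76, SE 0.28, edgeR adjusted p = 0.0498), and the call was lost in 13 of 17 alternatives, among them every run with a library left out. DBT, a core subunit of the branched-chain ketoacid dehydrogenase, had 15.2, 23.3 and 12.3 CPM in 3D and 28.9, 30.6 and 28.2 CPM in 2D and was 1.72-fold lower in 3D (log2 fold change -0.78, SE 0.21, edgeR adjusted p = 0.0130). Its transcript is long (10799 bases), and after the length and GC correction the DBT value did not pass (-0.31, adjusted p = 0.158), nor without 3D replicate 1 and 2D replicate 2 together (adjusted p = 0.0815). The other subunits of that complex did not pass. BCKDHA averaged 23.4 ± 3.78 CPM in 3D and 22.0 ± 2.18 CPM in 2D, and BCKDHB averaged 13.9 ± 0.990 CPM in 3D and 14.7 ± 0.514 CPM in 2D (SD, n = 3 each; edgeR adjusted p = 0.713 and 0.690). EXOSC5, which overlaps BCKDHA on the other strand, averaged 13.3 CPM in 3D and 17.4 CPM in 2D. IVD, of leucine breakdown, averaged 61.4 ± 4.64 CPM in 3D and 67.3 ± 1.41 CPM in 2D (SD, n = 3 each; edgeR adjusted p = 0.388). MCCC1, of the next leucine step, averaged 16.9 ± 2.79 CPM in 3D and 21.3 ± 1.84 CPM in 2D (SD, n = 3 each; edgeR adjusted p = 0.137), and was called lower without 3D replicate 2 (log2 fold change -0.48, adjusted p = 0.0435).

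BCAT1, the cytosolic branched-chain aminotransferase of fetal and tumour tissue, averaged 106 ± 6.43 CPM in 3D and 233 ± 8.54 CPM in 2D (SD, n = 3 each) and fell by 1.14 on the log2 scale (SE 0.11, edgeR adjusted p = 6.80e-05). BCAT1 counts were 22.6, 27.4 and 30.6 times those of BCAT2 in 3D and 89.0, 124.6 and 92.3 times in 2D (exact permutation p = 0.10, the smallest possible). GPT2, the mitochondrial alanine aminotransferase, averaged 217 ± 20.6 CPM in 3D and 325 ± 38.9 CPM in 2D and fell by 0.59 on the log2 scale (SE 0.13, edgeR adjusted p = 0.00568). Its ratio to GPT was 61.9, 74.9 and 82.1 in 3D and 91.1, 69.5 and 55.8 in 2D, overlapping (exact permutation p = 0.90). Of the 5 isoenzyme ratios reported, 4 were thus lower in every 3D library than in every 2D library. Each of the 4 had an adjusted p of 0.12 over the 6 exact permutation tests run, which 3 libraries against 3 cannot bring under 0.05. Among single genes, 50.5% of all tested had groups without overlap, and no such share was computed for ratios. The ratio of ARG2 over ARG1 rests on 10 to 16 counts of ARG1 in 2D libraries, and ARG1 passed the filter only through 3D.

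**Figure D3:**
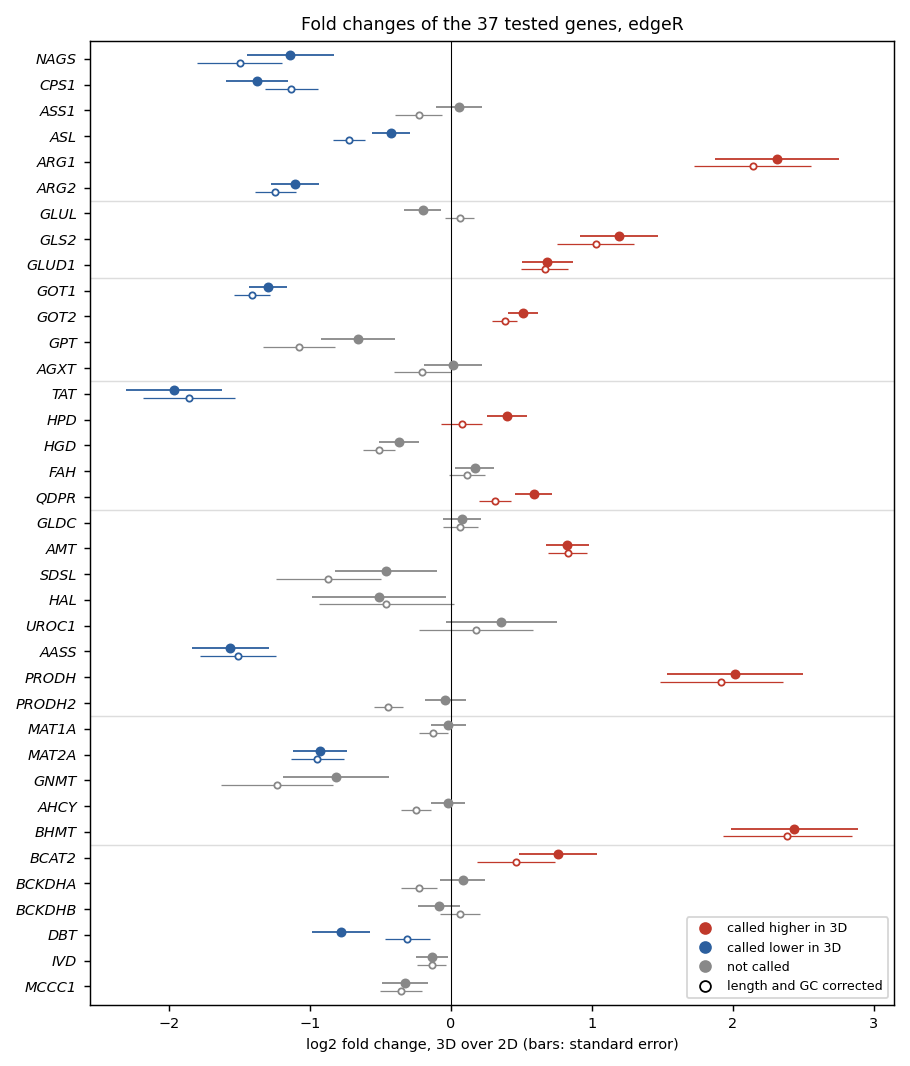
Log2 fold change, 3D over 2D, of the 37 tested genes, in pathway order from the urea cycle at the top to the branched-chain group at the bottom, with bars for the standard error. Filled points are the edgeR values and open points those corrected for transcript length and GC content. Colour gives the call of the uncorrected test, and BHMT, ARG1 and PRODH lie farthest to the right, TAT and AASS farthest to the left. BHMT, ARG1 and PRODH passed the filter on low counts only through their 3D libraries.

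Per kilobase of the longest annotated transcript, the order of levels at the top changed between the cultures. In 3D the highest were GLUD1 (226 ± 45.3 CPM per kb), AHCY (183 ± 1.19), MAT2A (116 ± 13.8), GLUL (82.1 ± 8.16) and GOT2 (64.1 ± 0.599; SD, n = 3 each). In 2D the highest were MAT2A (221 ± 64.4 CPM per kb), AHCY (186 ± 14.1), GLUD1 (141 ± 27.2), GLUL (94.3 ± 5.67) and HPD (45.4 ± 7.53; SD, n = 3 each). GLUD1 and AHCY in 3D, and MAT2A and AHCY in 2D, lay within the spread of the more variable gene. The same held for GOT2 and HPD in both cultures, with HPD at 59.8 ± 4.59 CPM per kb in 3D and GOT2 at 44.9 ± 1.55 in 2D. OTC was the lowest in both, at 0.168 CPM per kb in 3D and 0.0992 in 2D. The true transcript in HepG2 may be shorter than the longest annotated one, which would raise a gene's value per kilobase.

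Other enzymes and carriers of the same pathways, a list of 83 genes of which 76 were tested, also went both ways, with 17 higher (22.4%) and 21 lower (27.6%) in 3D, beside 19.0% and 17.6% over all tested genes, and a median log2 fold change of 0.13. After the length and GC correction, 17 were higher and 25 lower. Around the urea cycle 1 of 6 was called, CA5A, the mitochondrial carbonic anhydrase that supplies bicarbonate to CPS1. CA5A averaged 30.4 ± 7.00 CPM in 3D and 19.6 ± 1.21 CPM in 2D (SD, n = 3 each; log2 fold change 0.64, SE 0.17, edgeR adjusted p = 0.0138), and the call was lost without 3D replicate 3 (adjusted p = 0.0623) or 2D replicate 3 (0.0563).

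Among the 10 other glutamine genes, 6 fell and 0 rose, beside the 17.6% lower and 19.0% higher over all tested genes; this difference was not tested. They include ASNS, asparagine synthetase, with 56.7 ± 12.6 CPM in 3D and 179 ± 21.0 CPM in 2D (SD, n = 3 each; log2 fold change -1.66, SE 0.16, edgeR adjusted p = 6.65e-05). SLC38A2, a glutamine and neutral amino acid carrier, averaged 751 ± 177 CPM in 3D and 1857 ± 170 CPM in 2D (SD, n = 3 each; log2 fold change -1.31, SE 0.18, edgeR adjusted p = 0.000379). GLUD2, near-identical to GLUD1, averaged 79.3 ± 12.8 CPM in 3D and 59.98 ± 11.5 CPM in 2D (SD, n = 3 each; edgeR adjusted p = 0.0709), a gene named after its values were seen. Of the 5 other aminotransferases, ABAT, which degrades GABA, fell by 0.94 on the log2 scale (edgeR adjusted p = 0.00190). KYAT1, which transaminates kynurenine, was called higher (log2 fold change 0.69, edgeR adjusted p = 0.0364) but not with DESeq2 (adjusted p = 0.0519), nor with any single library other than 3D replicate 3 left out (adjusted p between 0.0683 and 0.128).

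In aromatic breakdown 2 of the 10 other genes rose and 2 fell. GSTZ1, which acts between HGD and FAH, rose by 0.63 on the log2 scale (edgeR adjusted p = 0.0106; adjusted p = 0.0509 without 2D replicate 3). In tryptophan breakdown, QPRT, which feeds NAD synthesis, averaged 347 ± 45.3 CPM in 3D and 198 ± 23.8 CPM in 2D (SD, n = 3 each; log2 fold change 0.81, edgeR adjusted p = 0.00127). KYNU, kynureninase, fell by 0.79 on the log2 scale (edgeR adjusted p = 0.0158), though not after the length and GC correction (-0.15, adjusted p = 0.698).

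Serine hydroxymethyltransferases, which interconvert serine and glycine, split by compartment. SHMT1, cytosolic, averaged 54.7 ± 6.17 CPM in 3D and 23.9 ± 4.93 CPM in 2D (SD, n = 3 each; log2 fold change 1.19, SE 0.16, edgeR adjusted p = 0.000347). SHMT2, mitochondrial, averaged 207 ± 25.9 CPM in 3D and 396 ± 52.0 CPM in 2D (SD, n = 3 each; log2 fold change -0.93, SE 0.14, edgeR adjusted p = 0.000605). In lysine breakdown downstream of AASS, ALDH7A1 rose by 0.84 (edgeR adjusted p = 0.00232) and DHTKD1 fell by 0.69 on the log2 scale (edgeR adjusted p = 0.0100).

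In homocysteine metabolism the remethylating BHMT2 and the methyltransferase PEMT, which makes phosphatidylcholine, were higher in 3D, and both enzymes of transsulfuration were lower. CBS averaged 55.0 ± 2.77 CPM in 3D and 154 ± 3.55 CPM in 2D (SD, n = 3 each; log2 fold change -1.48, SE 0.11, edgeR adjusted p = 1.89e-05), and CTH averaged 7.41 ± 3.496 CPM in 3D and 26.0 ± 2.90 CPM in 2D (SD, n = 3 each; log2 fold change -1.78, SE 0.31, edgeR adjusted p = 0.00203). PEMT rose by 1.01 on the log2 scale (edgeR adjusted p = 0.00124), and BHMT2 by 0.82 (edgeR adjusted p = 0.0120; adjusted p = 0.0507 without 2D replicate 3). Of the 18 other branched-chain genes, 7 rose (38.9%) and 6 fell (33.3%), beside 19.0% higher and 17.6% lower over all tested genes. The difference from these shares was not tested. The kinase and phosphatase of the ketoacid dehydrogenase moved oppositely. BCKDK, the inhibitory kinase, averaged 60.9 ± 10.8 CPM in 3D and 31.7 ± 1.56 CPM in 2D (SD, n = 3 each; log2 fold change 0.94, SE 0.14, edgeR adjusted p = 0.000625). PPM1K, the activating phosphatase, averaged 10.0 ± 2.86 CPM in 3D and 27.4 ± 2.25 CPM in 2D (SD, n = 3 each; log2 fold change -1.44, SE 0.20, edgeR adjusted p = 0.000328). Farther down, ECHS1, of valine breakdown, rose by 1.10 (edgeR adjusted p = 7.72e-05) and ALDH6A1, of the same path, fell by 1.44 on the log2 scale (edgeR adjusted p = 0.00336).

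**Figure D4:**
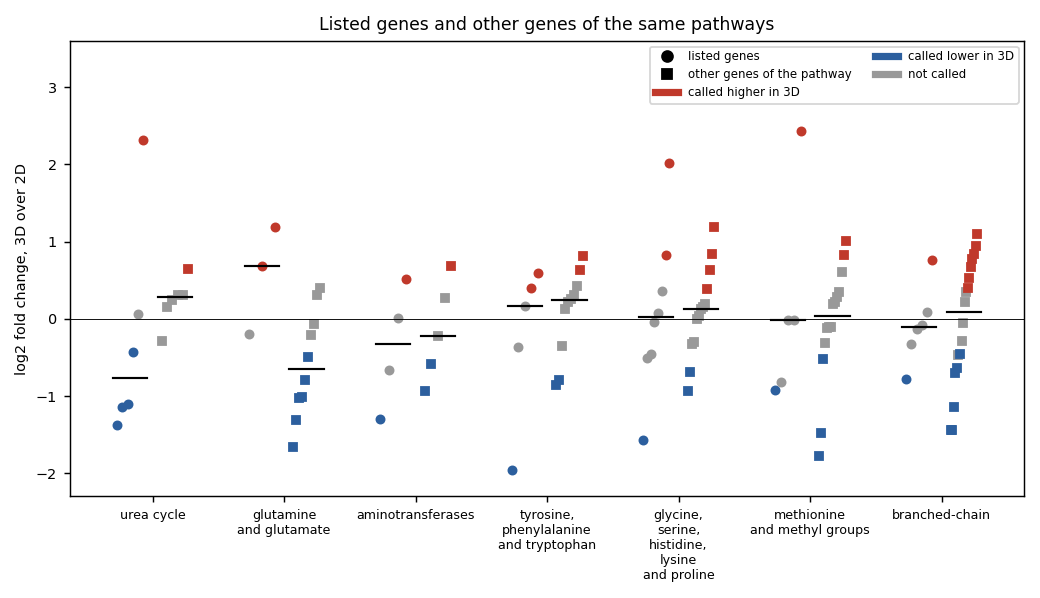
Log2 fold change, 3D over 2D, of the listed genes (circles) and of the other genes of the same pathways (squares), coloured by the edgeR call, with a bar at the median of each set. Medians of the listed genes run from -0.76 in the urea cycle to 0.68 in glutamine and glutamate, where the other pathway genes had a median of -0.64.

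Transcription factors known to drive liver amino acid genes were measured beside them, and no link between their levels and those of the listed genes was tested. KLF15, which in mouse liver is known to promote amino acid breakdown, had 4.86, 6.07 and 5.55 CPM in 3D and 31.4, 25.8 and 25.5 CPM in 2D (log2 fold change -2.32, SE 0.17, edgeR adjusted p = 1.89e-05). PPARGC1A, a coactivator of the fasting response, fell by 2.32 on the log2 scale (edgeR adjusted p = 1.89e-05). CEBPB, induced by stress and cyclic AMP, fell by 1.95 (edgeR adjusted p = 0.000465). CEBPA, the liver-enriched C/EBP factor, went the other way, with 212 ± 9.37 CPM in 3D and 125 ± 17.5 CPM in 2D (SD, n = 3 each; log2 fold change 0.76, SE 0.13, edgeR adjusted p = 0.00118). NR3C1, the glucocorticoid receptor, averaged 46.3 ± 9.07 CPM in 3D and 71.1 ± 8.60 CPM in 2D (SD, n = 3 each; log2 fold change -0.62, edgeR adjusted p = 0.0106), a call lost after the length and GC correction (adjusted p = 0.203) and without 2D replicate 1 (0.0575). HNF4A did not pass the test (log2 fold change -0.12, edgeR adjusted p = 0.453).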

How the data were processed

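RNA-seq of 6 HepG2 samples was used, grouped by their titles into 3D (3) and 2D (3). The authors deposited a table of estimated counts per gene, with no scaling; the tools named are STAR 2.4.1d and Partek, with build hg38, per the submitters' processing notes. The annotation, counting settings and strand setting are not given there or elsewhere in the sources used here. The lowest gene total in the table was 10, so genes below it are not analysed here. Estimated counts were rounded to whole numbers (61.7% already were whole, with a tolerance of 0), which moved library totals by at most 25.0 counts. Libraries of the same group all differed by more than sampling noise (chi-square per degree of freedom 10.3 to 26.7).

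All genes were fitted together with edgeR 4.0.16 in R 4.3.3 (filterByExpr, TMM, robust quasi-likelihood fit, culture as the only term), with Benjamini-Hochberg adjustment over 15314 genes and calls at 0.05. Standard errors of log2 fold changes came from the F statistics. The isoenzyme ratio is log2 of counts plus 0.5, tested by exact permutation. Alternatives were DESeq2 1.42.0, limma-voom (limma 3.58.1), other scalings and filters, the replicate number as a block, leaving out each library, leaving out 3D replicate 1 and 2D replicate 2 together, and a loess correction for transcript length and GC content (GENCODE release 29, available for 88.1% of tested genes and for the 38 listed genes analysed). Scripts were tested on simulated data.

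The listed genes, the other pathway genes and the factors were chosen with earlier results of these data known. All listed genes are named. From the other pathway genes, up to 2 called genes per direction and pathway were named, by absolute log2 fold change at 1 CPM or more, plus isoenzyme partners; some results are not reported here. Coordinates are those of the deposited table, less 1 base at the end, where the table's stop lay 1 past GENCODE's for 15665 of 16101 matched genes. Overlaps and pseudogene copies were read from GENCODE, and promoter windows from RefSeq.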

Additional observations from a re-analysis of the deposited data

How the results depend on the processing

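Of the 19 calls among the listed genes, 10 were the same in all 17 alternatives: CPS1, ARG1, ARG2, GOT1, GOT2, TAT, AMT, AASS, MAT2A and BHMT. Among them, ARG1 and BHMT passed the main filter on low counts only through their 3D libraries. No listed gene turned its direction while called. The count higher in 3D, 10, was 7 to 9 with a single library left out and 6 when 3D replicate 1 and 2D replicate 2 were both left out; the count lower, 9, was 7 to 10 with a single library left out. Of the other pathway genes, 12 to 17 were higher and 19 to 23 lower with a library left out. Same-numbered libraries did not deviate together (correlations of 0.064, -0.032 and -0.133, beside -0.124 to 0.185 for differently numbered ones). Pairing by replicate number was thus not detected, but 3 libraries per group cannot exclude it. With the number as a replicate block 9 listed genes were higher and 9 lower, and of the other pathway genes 15 and 22. The block with the length and GC correction gave 7 higher and 12 lower. The difference in log2 ratio of GPT2 over GPT, 0.036, turned to -0.038 with 5 counts added in place of 0.5, and ranged from -0.13 to 0.22 with a library left out. The cause was not tested. The differences of the other log2 ratios with a library left out ranged from -0.98 to -0.69 for MAT2A over MAT1A, -3.56 to -3.03 for ARG2 over ARG1, -2.02 to -1.76 for BCAT1 over BCAT2 and -1.90 to -1.70 for GOT1 over GOT2. Depth limits OTC, which cannot be compared, and widens the error of ARG1, PRODH, UROC1, SDSL and GNMT.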
